A study of Caenorhabditis elegans with 4 samples.

Results

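Genes of the embryonic apical matrix build the extracellular layer that lines the outer face of epithelia before the cuticle is made. The genes described here are noah-1 (C34G6.6), noah-2 (F52B11.3), fbn-1 (ZK783.1), sym-1 (C44H4.3), let-653 (C29E6.1), dex-1 (D1044.2), dyf-7 (C43C3.3) and che-14 (F56H1.1). They were chosen by these sequence names, with or without an isoform letter, and gave 12 transcripts of 8 genes, out of 23181 transcripts and 19380 named genes measured in the nematode Caenorhabditis elegans. The samples were 4 single-colour NimbleGen arrays of total RNA from early embryos, replicates 1 to 4 of a single group, written here as arrays 1 to 4. All 4 carry the labels of strain PFR40 with the allele tm1489 of hpl-2, which encodes a heterochromatin protein 1 homolog. The embryos were released by bleaching gravid adults from liquid culture, of which a small share were males, and the growth protocol names N2, the wild-type strain, as those adults. No treatment is given, and wild-type arrays, which the design text sets against these, were not analysed here, so no mutant against wild-type difference is described. Whether the replicates came from separate cultures is not stated in the labels, so the p-values measure only the spread between these samples, which may be technical.

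Before an embryo hatches, its epidermis, its sensory glia and its narrow tubes secrete a temporary apical layer, often called the embryonic sheath or precuticle. Many of its proteins carry a zona pellucida (ZP) domain, a module through which secreted proteins polymerize, and others carry leucine-rich repeats or EGF repeats. The layer is known to hold the epidermis together while the embryo elongates, to keep tubes such as the excretory duct open, and to anchor the tips of sensory dendrites while the cell bodies move away.

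Values were linear normalized signals, with a median between 576 and 591 per array. Pearson's r between arrays, across transcripts, was 0.981 to 0.996. Array 1 stood apart, with a mean r of 0.986 to the other arrays, against 0.990 to 0.994 for arrays 2 to 4. The median SD per transcript was 0.12 on the log2 scale with all arrays and 0.08 without array 1. Of 10 epidermal transcription factors 9 were above background, whereas 0 of 6 vitellogenin genes, markers of adult intestine, were. All 6 vitellogenin genes were called below background by limma, with vit-1, vit-2 and vit-3 at -0.85, -0.32 and -0.28 on the log2 scale, and their summed signal was 1380 to 1448 on the 4 arrays.

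All 8 apical matrix genes gave signal above the background of the arrays. As background served the 95th percentile of log2 signal over 1333 chemoreceptor genes on the same array, families of neuronal receptors used as a low-signal reference. It lay at 8.09, 8.44, 8.25 and 8.46 on arrays 1 to 4. All 12 transcripts passed limma's test against it, while 55.2% of all transcripts and 52.1% of all named genes did. The distance above background ran from 2.04 to 6.21 on the log2 scale, with a median of 5.17 over the 8 genes and of 0.50 over all named genes. The largest limma adjusted p among the genes was 1.45e-05 and the smallest 9.31e-10. Such distances depend on the brightness of each probe, so the genes were not ranked by them. Most of the chemoreceptor genes lie below this background by its definition, so a call below background does not set a gene apart. The share of all genes called below it is not given here.

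**Figure D1:**
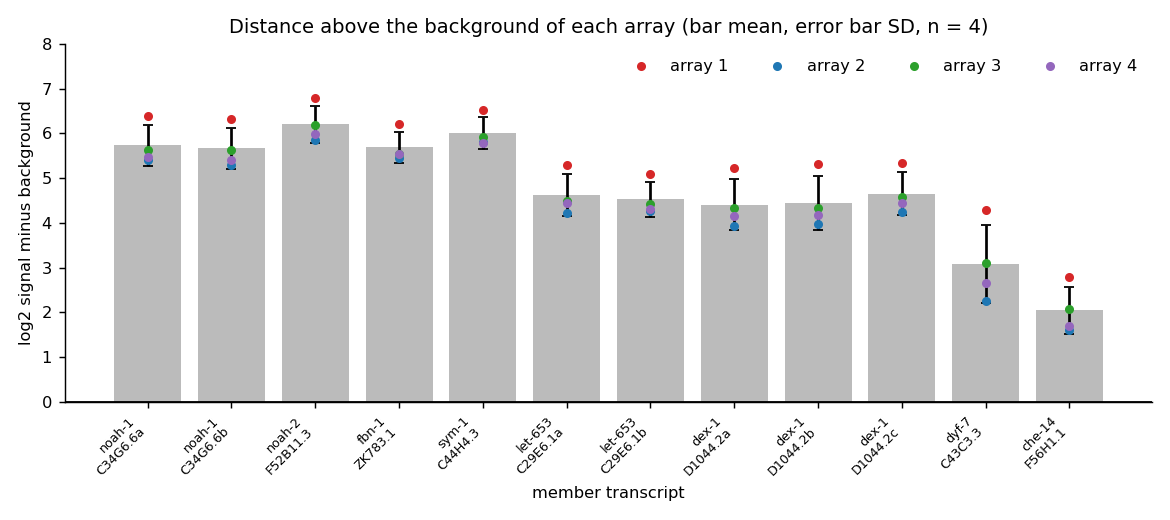
Log2 signal minus the background of the same array for each of the 12 transcripts. Grey bars are means over 4 arrays, error bars are SDs and coloured points are single arrays. All bars lie above 2, and the red points of array 1 are the highest of each transcript. Part of this lead comes from the subtraction, because array 1 has the lowest background, 8.09 against 8.25 to 8.46 on the others. The signals before subtraction are also highest on array 1 for all 12 transcripts.

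The proteins of the embryonic sheath came first. The gene noah-1, on chromosome I, encodes a ZP domain protein of the sheath. Its transcript C34G6.6a had signals of 22937, 14759, 15137 and 15658 on arrays 1 to 4. Array 1 was high and arrays 2 to 4 lay within 1.06-fold of each other. On the log2 scale it lay 5.73 ± 0.46 above background (SD, n = 4, limma adjusted p = 4.23e-09). Its second transcript, C34G6.6b, gave 21924, 13679, 14911 and 15024, the same order with array 1 highest and array 2 lowest.

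The related gene noah-2, on chromosome IV, encodes another ZP domain protein of the sheath. Its signals were 30155, 20158, 22161 and 22240. Again array 1 was the highest and array 2 the lowest. The transcript lay 6.21 ± 0.41 above background (SD, n = 4, limma adjusted p = 1.58e-09). The 2 noah genes deviated from their own means over the arrays by 0.45 and 0.37 log2 on array 1 and by -0.19 and -0.21 on array 2.

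A fibrillin-related protein with many EGF repeats is encoded by fbn-1 on chromosome III. Its signals were 20127, 15269, 14216 and 16281. Array 3 was the lowest here, and array 1 stood 1.24-fold above array 4, the next highest. The transcript lay 5.69 ± 0.35 above background (SD, n = 4, limma adjusted p = 1.32e-09). In the RefSeq annotation fbn-1 overlaps the neighbouring gene upp-1, whose signals were 6804, 8698, 8777 and 8786, lowest on array 1. Neither the strand nor the position of the probes is given in the sources used here.

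The secreted leucine-rich repeat protein SYM-1 takes its name from synthetic lethality with mutations of mec-8, a regulator of splicing. Its gene lies on chromosome X and gave 25010, 19467, 18401 and 19377. Arrays 2 to 4 were within 1.06-fold of each other and array 1 was 1.28-fold above the highest of them. The transcript lay 6.01 ± 0.35 above background (SD, n = 4, limma adjusted p = 9.31e-10). The overlapping gene bltp-3B was also highest on array 1, with 10508 against 8781 to 9502 on the others.

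The tube lining gene let-653, on chromosome IV, encodes a ZP domain protein of the lumen of the excretory duct and pore. Its transcript C29E6.1a gave 10755, 6504, 6815 and 7707, and C29E6.1b gave 9309, 6665, 6501 and 7033. Both were highest on array 1, and they differed on the lowest array, which was array 2 for the first and array 3 for the second. C29E6.1a lay 4.62 ± 0.47 above background and C29E6.1b 4.53 ± 0.39 (SD, n = 4, limma adjusted p = 2.27e-08 and 9.27e-09).

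The pair of genes that anchors sensory dendrites followed. The gene dex-1, on chromosome III, encodes a secreted or membrane protein related to matrix proteins, which acts with DYF-7 at dendrite tips. Its 3 transcripts were all highest on array 1 and lowest on array 2. D1044.2a gave 10127, 5255, 6134 and 6299. D1044.2b gave 10898, 5494, 6091 and 6324, and had the largest distance between array 1 and the next array among the 3, at 1.72-fold. D1044.2c gave 11054, 6582, 7233 and 7726, and lay 4.65 ± 0.48 above background (SD, n = 4, limma adjusted p = 2.35e-08).

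The ZP domain protein DYF-7 gives the dendrite tips their hold on the apical layer. Its gene, on chromosome X, gave 5320, 1664, 2622 and 2216. Array 1 was 2.03-fold above array 3, the next highest, and arrays 2 to 4 did not lie close together either. It lay 3.08 ± 0.88 above background (SD, n = 4, limma adjusted p = 1.45e-05), with single arrays at 4.29, 2.26, 3.11 and 2.65.

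The last gene, che-14 on chromosome I, encodes a membrane protein related to Dispatched that is needed for secretion at apical faces of epidermis and glia. Its signals were 1880, 1062, 1274 and 1145. The order was array 1, then 3, then 4, then 2, as for dyf-7. It lay 2.04 ± 0.53 above background (SD, n = 4, limma adjusted p = 1.23e-05). With the 99th percentile of the chemoreceptors as background it lay 1.16 above and was still called.

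**Figure D2:**
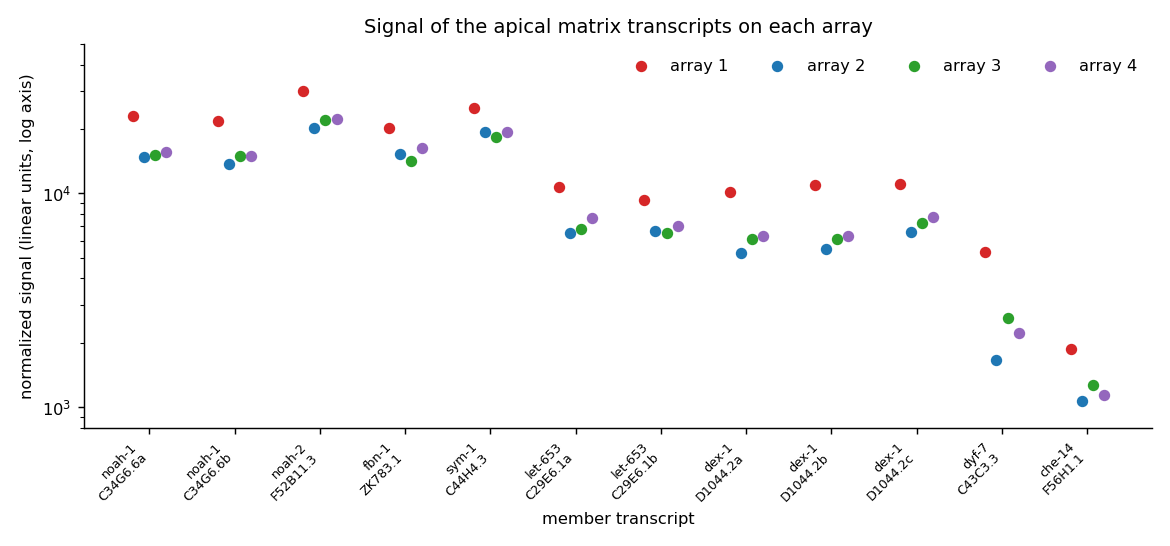
Normalized signal of the 12 transcripts on the 4 arrays, in linear units on a log axis. Each column is a transcript and each colour an array. The red points of array 1 are the highest in all 12 columns, from 1880 for che-14 to 30155 for noah-2.

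Every apical matrix gene was highest on array 1. This held for 8 of 8 genes, while 27% of the named genes above background had their highest signal there. It held for 12 of 12 transcripts, against 30.3% of all transcripts above background. The median gene deviated by 0.46 log2 from its mean over the 4 arrays on array 1, with single genes between 0.29 and 0.99. On arrays 2 to 4 the medians were -0.24, -0.15 and -0.07. The median over the named genes above background was -0.06 on array 1 and 0.03, 0.0059 and 0.02 on the others. These are replicates of a single group, so the difference between arrays has no test. In whole embryos, more cells of a type and more RNA in each such cell cannot be told apart.

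The lowest array was array 2 for 6 of the 8 genes and array 3 for fbn-1 and sym-1. Array 2 was the lowest for 15.9% of the named genes above background. Among arrays 2 to 4 alone, array 4 was the highest for 5 genes, array 3 for dyf-7 and che-14, and array 2 for sym-1. The dendrite gene dyf-7 and the secretion gene che-14 therefore had the same order of arrays, while the sheath genes sym-1 and fbn-1 had others.

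**Figure D3:**
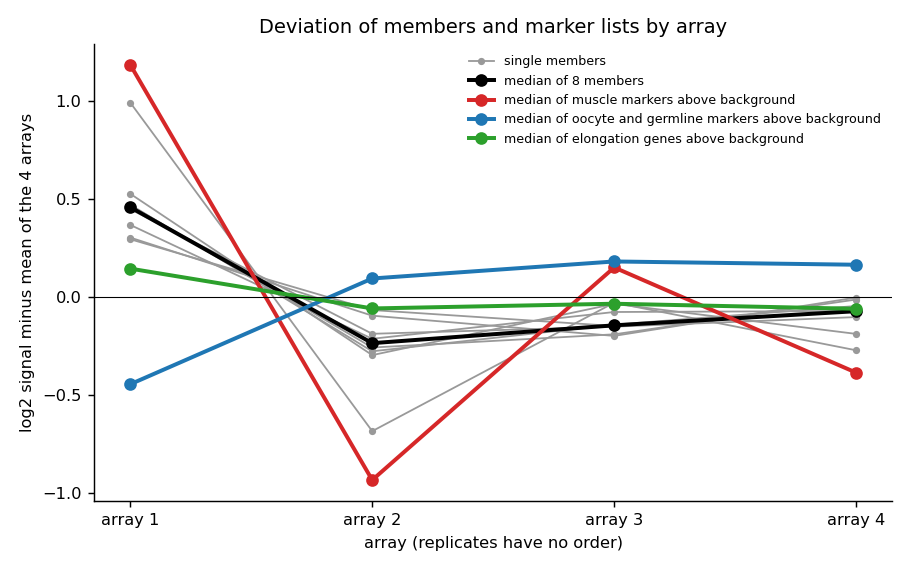
Log2 signal minus the mean over the 4 arrays, by array, for the 8 genes (grey), their median (black) and the medians of 3 lists over their genes above background (colours). On array 1 the median of the apical matrix genes is 0.46, that of the muscle markers 1.18, that of the elongation genes 0.14 and that of the oocyte and germline markers -0.45. Over all measured genes of these lists the array 1 medians are 1.15 for muscle, 0.14 for elongation and -0.34 for oocyte and germline.

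The width of the differences varied among the genes. The highest over the lowest signal came to 3.20-fold for dyf-7, 1.77-fold for che-14, 1.68-fold for dex-1, 1.65-fold for let-653, 1.55-fold for noah-1, 1.496-fold for noah-2, 1.42-fold for fbn-1 and 1.36-fold for sym-1. A range past 1.5-fold was found for 5 of the 8, while 18.7% of the named genes above background had one. All 5 were highest on array 1, which together with such a range was seen in 8.94% of those genes. The nearest to the threshold were noah-1 inside it and noah-2 outside it, the latter just below 1.5. Among transcripts the count was 8 of 12, against 18.8% of all transcripts above background. The median range was 1.60-fold for the apical matrix genes and 1.20-fold for the named genes above background.

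Without array 1 the ranges narrowed. The median became 1.16-fold for the 8 genes and 1.09-fold for the named genes above background. Only dyf-7 kept a range past 1.5-fold, at 1.58, which 3.92% of the named genes above background had over arrays 2 to 4. The ranges of the other 7 genes were then between 1.06 and 1.20-fold. All 12 transcripts were still called above background by limma without array 1. In that fit limma gave all 12 the same standard error, 0.12 log2, so the spread of each transcript did not enter the call.

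**Figure D4:**
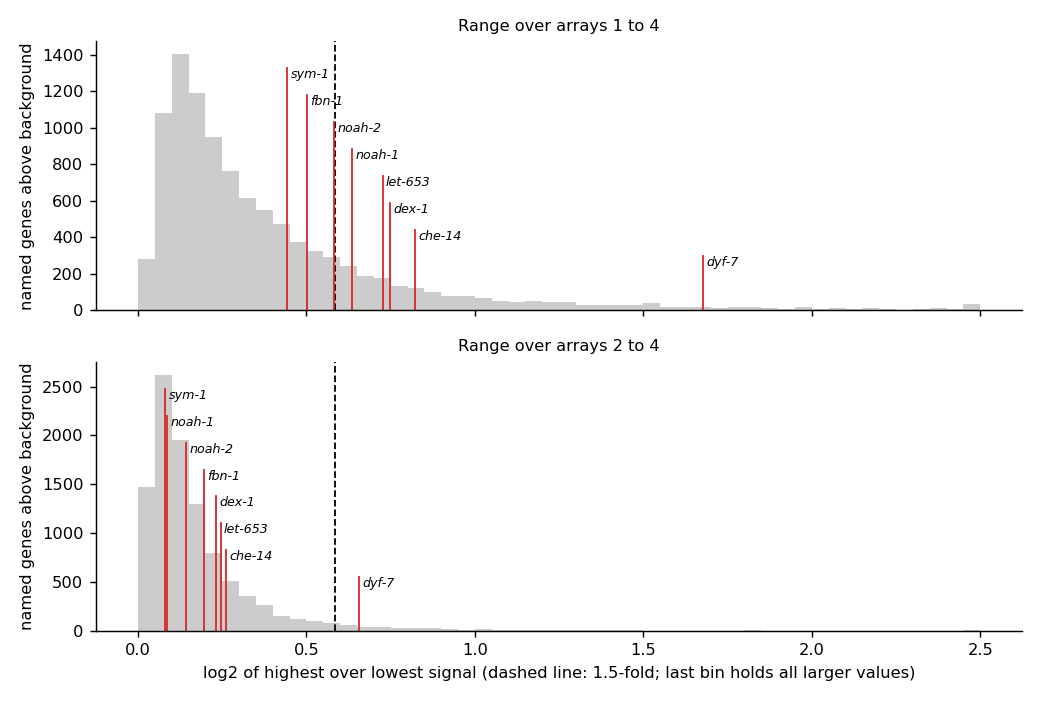
Log2 of the highest over the lowest signal for the named genes above background (grey histogram), with the 8 apical matrix genes as red lines, over arrays 1 to 4 (top) and arrays 2 to 4 (bottom). The dashed line is 1.5-fold. In the top panel 5 genes lie to its right, in the bottom panel dyf-7 alone, at 1.58-fold.

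Transcripts of the same gene moved together. The 2 transcripts of noah-1 deviated from their own means by amounts that differed by at most 0.05 log2 on any array. For let-653 the largest such gap was 0.13 and for the 3 transcripts of dex-1 it was 0.18. The ranges within dex-1 ran from 1.68 to 1.98-fold, and those within let-653 from 1.43 to 1.65-fold. Probes averaged into transcripts of a gene may be shared, so these are not independent measurements.

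Other genes of the apical matrix and its surroundings were read from lists of related proteins. Of 35 further ZP domain genes of the cuticlin families, 15 were above background and 14 below. Of the 15, 13 were highest on array 1 and 12 had a range past 1.5-fold, with a median range of 1.92-fold. Over all 35 the median deviation on array 1 was 0.38 log2. The cuticlin genes cut-1, cut-3 and cut-4 did not share a pattern. The signal of cut-1 was 630, 869, 854 and 857, lowest on array 1, and lay 1.33 above background (limma adjusted p = 1.43e-06). The signal of cut-3 was 381, 157, 522 and 168 and was not told apart from background, and cut-4, at -1.28, was called below it. Also below were ram-5 and cutl-1, at -0.93 and -0.92 log2.

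Leucine-rich repeat proteins of the cell surface, the family of sym-1, were above background for 14 of 22 genes, with 10 of the 14 highest on array 1 and 6 past 1.5-fold. The sheath and duct gene let-4, which encodes such a protein, lies beside sym-1 on chromosome X, and bltp-3B spans both. It gave 8187, 5134, 4932 and 5163, a range of 1.66-fold against 1.36-fold for sym-1, and array 3 was the lowest for both. Its relative egg-6, also known from the excretory duct, ran the other way with 8576, 11549, 12309 and 11419, lowest on array 1. The gene pan-1 gave 12844, 9989, 10495 and 10607. The relatives lron-4 and lron-5 were called below background, at -1.09 and -1.15.

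The lipocalins, secreted carriers of lipids, had 4 of 7 genes above background, 0 below and 3 not told apart from it. All 4 above background were highest on array 1, with a median range of 7.62-fold. The gene lpr-3, known from the apical layer of the duct, gave 16562, 9674, 11146 and 10435 and lay 5.20 above background. Neither lpr-1 at 0.22 nor lpr-2 at 0.01 was told apart from it. The largest range of the list belonged to lpr-4, named after its values were seen, with 7584, 425, 3410 and 1018, which is 17.8-fold from array 1 to array 2.

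The gene sym-1 belongs genetically with mec-8 and the smu splicing genes. All 6 measured genes of the list of mec-8, the smu splicing genes and the sym genes were above background, and their median range was 1.09-fold. The signal of mec-8 itself, which is known to regulate splicing of fbn-1, was 18954, 16759, 16553 and 16843, a range of 1.15-fold. The splicing factor genes smu-1 and smu-2 had ranges of 1.05 and 1.098-fold. Of the 6 genes only sym-2 passed 1.5-fold, at 2.47, with array 1 highest.

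Relatives of che-14 in the Patched and Dispatched families were above background for 19 of 28 genes and below for 6, with 9 of the 19 highest on array 1 and 8 past 1.5-fold. The Patched gene ptc-1 gave 3967, 5693, 5325 and 5488, lowest on array 1, as did ptc-2 with 2152, 3075, 2921 and 3031. The gene ptc-3 gave 2564, 1981, 2023 and 1860, highest on array 1. Both ptd-2 and ptr-8 were called below background, at -0.99 and -0.95. Of the convertases that can cut secreted proteins, 3 of 4 were above background, with bli-4 at 6.08, kpc-1 at 4.87 and egl-3 at 2.48, and aex-5 was called below at -0.61.

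Fibrous organelles join the apical face of the epidermis to the muscle beneath it. Of 8 genes, 7 were above background, all 7 were highest on array 1, and their median range was 2.41-fold. The apical receptor genes mua-3 and mup-4 had ranges of 3.44 and 3.37-fold, with array 2 lowest, and the spectraplakin gene vab-10 had 1.39-fold. Of 6 furrow collagens, 5 were above background, with a median range of 2.78-fold, and 1 was not told apart from it. Of the 5, 4 were highest on array 1, and the same 4 had a range past 1.5-fold. Among them dpy-2, dpy-3 and dpy-7 had ranges of 3.90, 5.54 and 2.78-fold. Of 8 molting genes, 5 were above background, with a median deviation of 0.51 log2 on array 1 among them and of 0.31 over all 8. The genes mlt-8 and mlt-10 lay 5.07 and 5.19 above background, mlt-9 lay at 0.31 with no call, and bli-5 and nas-37 were called below at -0.74 and -0.88.

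Regulators of epidermal fate and the machinery of elongation came next. Of 10 epidermal transcription factors 9 were above background, with a median range of 1.14-fold. The GATA factor gene elt-1 and the zinc finger gene lin-26, which set epidermal fate, had ranges of 1.14 and 1.09-fold. The later epidermal GATA factor gene elt-3 gave 8680, 4882, 4998 and 5263, a range of 1.78-fold with array 1 highest, and grh-1 was called below background at -0.58. All 16 elongation genes were above background, 15 of them highest on array 1, with 3 past 1.5-fold and a median range of 1.17-fold. The myosin phosphatase gene mel-11 and the myosin gene nmy-1 had ranges of 1.1005 and 1.45-fold.

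Genes of glia and dendrites, where dex-1, dyf-7 and che-14 also act, were above background for 11 of 12. Of these, 9 were highest on array 1 and 5 had a range past 1.5-fold, with a median range of 1.495-fold. The glial lumen gene daf-6 was called above background at 0.66 (limma adjusted p = 0.036), with single arrays at 1.65, -0.03, 0.89 and 0.16, so that array 2 was not above its own background. The gene ptr-10 had a range of 2.47-fold, highest on array 1, and kcc-3 had 1.64-fold, lowest on array 1. Both daf-6 and ptr-10 also stand in the list of Patched and Dispatched relatives and are counted in both lists. The gene fig-1 was called below background at -0.31. Of 10 genes of ciliated neurons 4 were above background and 6 were not told apart from it. The ciliary regulator daf-19 lay 4.95 above, while che-2 and che-11 lay at -0.49 and -0.25. The signal summed over all 10, in which the brightest genes weigh most, was 18165 on array 1 and 12958 to 14977 on the others.

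**Figure D5:**
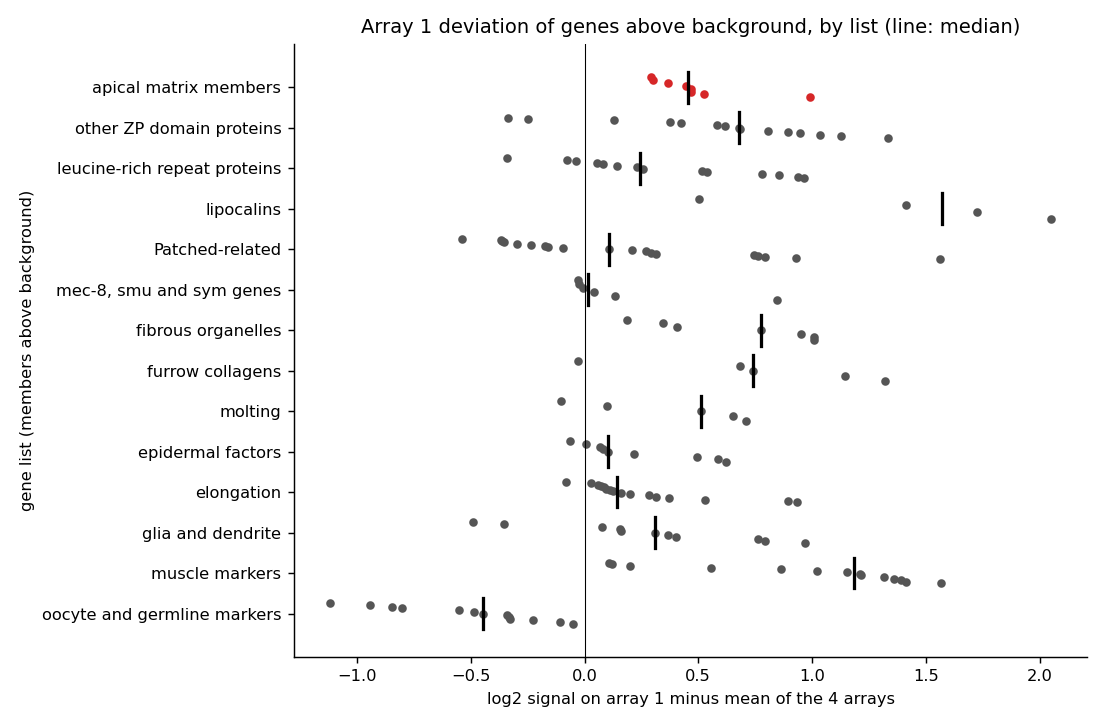
Log2 signal on array 1 minus the mean over the 4 arrays for single genes above background, by list, with the apical matrix genes in red and a black line at each median. The medians are 0.46 for the apical matrix genes, 0.68 for other ZP domain genes, 1.57 for lipocalins, 0.02 for mec-8, smu and sym genes, 0.10 for epidermal factors and -0.45 for oocyte and germline markers. The call above background includes array 1, so the choice of genes is not independent of the values shown. Over all measured genes the medians are 0.38 for other ZP domain genes, 1.14 for lipocalins, 0.16 for epidermal factors and -0.34 for oocyte and germline markers. Those of the apical matrix genes and of the mec-8, smu and sym genes do not change.

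Markers of other tissues also moved between the arrays. Of 15 muscle markers 14 were above background, all 14 were highest on array 1, and 11 had a range past 1.5-fold. Their summed signal over all 15 was 99907 on array 1 and 48292 to 63581 on the others, while the summed signal of the 8 apical matrix genes was 127239 against 85466 to 92350. The myogenic factor gene hlh-1 had a range of 1.31-fold, while 5.88-fold was found for the myosin gene myo-3 and 5.22-fold for unc-54. Oocyte and germline markers ran the other way. Of 15, 13 were above background, 0 of them highest on array 1, and their summed signal over all 15 was 124527 there against 170460 to 183869. The chitin synthase gene chs-1 lay 1.12 log2 below its own mean on array 1, with cbd-1 and egg-1 at -0.34 and -0.94, and perm-2 was called below background at -0.35 (limma adjusted p = 0.0498).

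Of the 12 neuron markers, 7 were above background, with unc-119 and unc-86 at 3.85 and 3.50 and rab-3 at -0.27 not told apart from it, and snt-1 and tax-4 were called below at -0.57 and -0.96. Their summed signal was 47019 on array 1 and 40808 to 41442 on the others. Endoderm markers had 7 of 9 above background, with elt-2 at 3.99, elt-7 at 3.73 and end-1 at 3.05 and cpr-1 called below at -0.84. Pharynx markers had 2 of 7, pha-4 at 4.93 and ceh-22 at 1.85, and myo-1 was called below at -0.67. Their summed signals on array 1 were 20755 and 16144, against 15343 to 16103 and 10585 to 11167 on the others. Of the 7 pharynx markers, 4 were called below background and 1 was not told apart from it. Each sum runs over all measured genes of its list, so its brightest genes weigh most. Of 6 sperm markers 4 were above background, with spe-9 at 0.61, spe-11 at 0.05 not told apart and spe-38 called below at -0.88, and their sum was 3468 on array 1 against 4577 to 6462. No marker of any list was at 0, the lowest value on the arrays being 101. The part of these tissues, or of the age of the embryos, in the array 1 values of the apical matrix genes was not tested.

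Genes beside the members on the chromosomes were read as well. Taken were the 16 measured genes whose start positions come just before and just after those of the members. The gene bltp-3B, which spans sym-1 and starts farther off, is not among them, while upp-1, which overlaps fbn-1, is. Of the 16, 11 were above background, 4 of these were highest on array 1 and 3 had a range past 1.5-fold, with a median range of 1.27-fold. The 3 were let-4 beside sym-1, the nuclear receptor gene nhr-43 beside let-653 at 3.58-fold, and F15G9.1 beside dyf-7 at 3.48-fold, all highest on array 1. Beside sym-1 on its other side, tap-1 gave 3076, 3051, 2859 and 2946. The genes cdc-7 and pgp-2 beside noah-1 had ranges of 1.27 and 1.12-fold, rad-8 and ccpp-1 beside che-14 had 1.11 and 1.13-fold, and none of these 4 was highest on array 1. The same held for D1044.6 beside dex-1, at 1.33-fold, F52B11.2 beside noah-2, at 1.13-fold, and upp-1 beside fbn-1. Of the other 5, T04A6.1 beside fbn-1, D1044.4 beside dex-1 and the ZP domain gene cutl-27 beside let-653 were called below background, at -1.10, -0.96 and -1.003. The collagen gene col-133 beside noah-2 and npr-18 beside dyf-7 were not told apart from background, at -0.19 and 0.07.

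The genes most like each member were found by the root mean square difference of their log2 deviations over the 4 arrays, among 10085 other named genes above background. With so many candidates and 4 arrays a close gene is found for most profiles, and the search describes these arrays only. The nearest to noah-2 was grdn-1, which encodes a girdin homolog and also stands in the list of glia and dendrites, at a difference of 0.0036 log2. The nearest to noah-1 was K10B4.3, to fbn-1 Y106G6D.8, to sym-1 cest-24, to let-653 ttr-18, to dex-1 ham-2 and to che-14 kin-2, with differences of 0.011, 0.018, 0.0082, 0.016, 0.016 and 0.0068 log2. For dyf-7, the gene with the widest range, the 5 nearest were T21D12.7, the agrin gene agr-1, ZC84.6, the syntrophin gene stn-2 and the intermediate filament gene ifb-1, at 0.011 to 0.027 log2. Of these, ifb-1 belongs to the fibrous organelle list, and its signals were 9675, 3193, 4884 and 4153.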

How the data were processed

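Each deposited value was a linear intensity that the authors had quantile normalized between arrays and averaged, giving a single number for each transcript, per the file headers and names. Labelling with Cy3 was done by NimbleGen, per the labels' protocols. The sources used here do not state the scanner, the background correction or the genome build. The series table matched the single-sample tables, with a largest difference of 0. Quantile normalization hides shifts shared by most transcripts.

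Names came from RefSeq genes of WBcel235, 17151 as written, 5352 without the isoform letter and 678 unmatched. The log2 was taken with a floor of 1, which 0 values reached from below. Log2 signal minus the array's background was fitted with limma 3.58.1 in R 4.3.3 (lmFit, eBayes, intercept only, two-sided), with Benjamini-Hochberg adjustment over all 23181 transcripts at 0.05. A gene was read from its transcript of highest mean, and any transcript above background made the gene count as above. Spread between backgrounds enters every SD above background. The fit was tested on simulated data. Precision is limited by having 4 arrays.

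The members and the 20 lists were chosen with earlier results of these data known. Genes named were every member transcript, the first 3 measured genes of each list and up to 2 later genes with a call opposite to its majority, the genes most alike and the nearest neighbours. Exceptions named after their values were seen were lpr-4, sym-2, bltp-3B, msp-3, msp-10 and msp-19. Others, among the results flagged for a closer look, were cutl-2, vab-19, elt-6, dlg-1, hmp-1, lrp-1, unc-18, egg-3, cpg-1, him-3 and syp-2. Of the listed genes, sym-5 and ptr-7 were not found under those symbols and were not used. Alternatives were other backgrounds, each replicate left out, dim transcripts left out, 50 added before log2, array medians subtracted and the mean over transcripts. A gene of the elongation list that this rule names is not reported here.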

Additional observations from a re-analysis of the deposited data

Results flagged for a closer look

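Of 195 transcripts tested, the 12 of the apical matrix genes and those above background among the listed, neighbouring and most alike genes, 19 had an array that stood far from the other 3, all of them array 1. The measure was the gap to the nearest other array divided by the whole range on the log2 scale, against Dixon's limit for 4 samples, which chance passes in about 1 of 20 groups. Among all 12805 transcripts above background, 9.48% passed it and 8.06% passed it on array 1. Of the 12 apical matrix transcripts 1 passed it, noah-1 C34G6.6a at 0.866, while the second noah-1 transcript, C34G6.6b, did not. Array 1 was also the highest and apart for cutl-2 at 0.962, let-4 at 0.91, mec-8 at 0.872, vab-10 at 0.951, vab-19 at 0.855, elt-3 at 0.87, elt-6 at 0.843, dlg-1 at 0.942, hmp-1 at 0.909, lrp-1 at 0.837 and unc-18 at 0.901. It was the lowest and apart for cut-1 at 0.946, ptc-2 at 0.856, egg-3 at 0.87, cpg-1 at 0.839, him-3 at 0.909, syp-2 at 0.846 and upp-1 at 0.961.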

How the results depend on the processing

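All 12 transcripts and 8 genes of the apical matrix were called above background under each of the 9 alternatives tried for these calls. For che-14 the distance was 1.16 to 2.87 log2 over these alternatives and for dyf-7 2.195 to 3.91. The genes of the lists above background numbered 163, and 142 to 202 under the alternatives. The count of apical matrix genes with a range past 1.5-fold was 5 and became 1 to 5 with 1 array left out, the 1 being without array 1. Leaving out array 1 removes the highest value of each gene. The median deviation on array 1 was 0.46 log2 and stayed between 0.38 and 0.45 under the alternatives that keep it. No paired analysis was possible because there is only 1 group.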
